A study of Mus musculus with 12 samples.

Results

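Lipoprotein lipase and 5 of its regulators were followed in abdominal fat of mice given shRNA adenoviruses. The members were taken by gene symbol: Angptl8, Angptl4, Lpl, Gpihbp1, Lmf1 and Vldlr. Each symbol had 1 probe set, so the 6 members are 6 of the 23185 genes measured with a named probe set. They were picked with earlier results of the same arrays known, among them a high Angptl8 level in the TSC22D4 group. Differences of the members between groups are therefore descriptions with intervals, without a p-value. How many members passed the fit over all genes is given beside the share of all genes that did, and supports nothing.

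Lipoprotein lipase, coded by Lpl, hydrolyses the triglycerides of chylomicrons and very-low-density lipoproteins at the wall of capillaries, and in fat it supplies fatty acids for storage. The enzyme is folded in the endoplasmic reticulum of the adipocyte with the help of Lmf1, and Gpihbp1, an endothelial protein anchored in the membrane, carries it to the capillary lumen. Angptl4 is a secreted inhibitor that is induced by fasting. Angptl8 is a secreted partner of other angiopoietin-like proteins that is induced by feeding and insulin. Vldlr is a receptor that binds triglyceride-rich lipoproteins and favours their uptake.

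The labels give 1 strain for all mice, BKS.Cg-Dock7m +/+ Leprdb/J, and it carries the Lepr db allele of the leptin receptor used as a model of obesity and diabetes. They were 12 weeks old, and fat was collected 1 week after virus injection. The TSC22D4 group received 2e9 plaque-forming units (pfu) of TSC22D4 shRNA virus with 2e9 pfu of control shRNA virus. The LCN13 group received 2e9 pfu of LCN13 shRNA virus with 2e9 pfu of control virus. The combined group received 2e9 pfu of each of the gene-directed viruses and no control virus, and the control group received 4e9 pfu of control virus. Each group had 7 animals, and the 3 measured per group are described as representative, which is not a random choice. The labels do not say which tissues the virus reached. Their genotype field reads WT for controls and knockdown of the targeted gene or genes for the shRNA groups, and whether WT also speaks of Lepr is not stated. All shRNA groups were given a smaller dose of control virus than controls were. Gain of a gene-directed virus and loss of control virus thus cannot be told apart when an shRNA group is set against control. The same holds when the combined group, which had no control virus, is set against a single shRNA group. It also holds for the averaged TSC22D4 effect, where arrays with TSC22D4 virus are set against arrays without it. The averaged LCN13 effect has the same limit. In the interaction of the shRNAs, described below, only a log2 response linear in the dose of control virus cancels. Any other response to that dose cannot be told apart from an interaction.

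Values are log2 probe set values as deposited, which ran from 5.62 to 14.38 on 12 arrays with 1 common distribution. Arrays of a group correlated with each other at 0.994 to 0.998 over all probe sets. Tsc22d4 itself lay between 7.56 and 7.74 in the TSC22D4 group, against 7.57 to 7.88 in control, so a lower level of the target was not detectable in this tissue. Lcn13, listed as Obp2a, lay between 5.71 and 5.79 on all arrays, near the lower end of the scale. The adipocyte genes Adipoq (12.2 to 12.4), Plin1 (12.6 to 12.8) and Lep (13.9 to 14.0) were bright on every array, and so was the endothelial gene Cdh5 (12.6 to 12.9). The 12 measured adipocyte markers differed by little, with mean levels of -0.090 to 0.065 log2 about the mean of the 12 arrays. LCN13 replicates 5 and 6 stood apart in mesothelium markers, at 0.60 and 0.63 log2 above the mean of the 12 arrays. These markers were at -0.13 in LCN13 replicate 8 and -0.34 to 0.02 in the other groups. Liver markers were at 0.26 and 0.30 on LCN13 replicates 5 and 6, against 0.0046 on LCN13 replicate 8. They were at 0.27 on combined replicate 13, -0.26 to 0.052 in control and -0.14 to -0.013 with TSC22D4 shRNA. Interferon-stimulated genes lay at -0.71 to -0.32 in the 3 shRNA groups, against 1.36 to 1.69 in control. The 3 measured red blood cell markers were highest in the combined group, at 0.93 to 1.28, against -0.16 to 0.52 with TSC22D4 shRNA, -1.27 to 0.70 with LCN13 shRNA and -1.56 to 0.43 in control. In bulk tissue, fewer cells of a type and less RNA per cell cannot be told apart.

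The sequence before the start of Angptl8 is shown because this member differed most between groups, beside those of Pnpla3, Elovl6 and Fasn, whose levels followed that of Angptl8 among animals of a group as described further on. All are 250 bases before a RefSeq start, 5′ to 3′, on GRCm38.p6. Of the 6 members 3 had an entry. The windows are chr9:21835260-21835509 (plus strand) for Angptl8, chr15:84167566-84167815 (plus) for Pnpla3, chr3:129532136-129532385 (plus) for Elovl6 and chr11:120824548-120824797 (minus) for Fasn. Capitals mark an inverted repeat in Angptl8 and matches to the searched motifs in the others.
Angptl8: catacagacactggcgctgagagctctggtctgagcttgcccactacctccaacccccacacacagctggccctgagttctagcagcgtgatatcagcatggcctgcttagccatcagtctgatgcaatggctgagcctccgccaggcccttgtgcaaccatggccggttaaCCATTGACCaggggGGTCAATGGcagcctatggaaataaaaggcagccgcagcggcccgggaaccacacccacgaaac
Pnpla3: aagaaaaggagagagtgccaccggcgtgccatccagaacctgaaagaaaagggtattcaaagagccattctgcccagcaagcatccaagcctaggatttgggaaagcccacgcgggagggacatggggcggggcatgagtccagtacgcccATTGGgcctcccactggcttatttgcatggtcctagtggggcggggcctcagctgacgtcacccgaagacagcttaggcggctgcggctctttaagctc
Elovl6: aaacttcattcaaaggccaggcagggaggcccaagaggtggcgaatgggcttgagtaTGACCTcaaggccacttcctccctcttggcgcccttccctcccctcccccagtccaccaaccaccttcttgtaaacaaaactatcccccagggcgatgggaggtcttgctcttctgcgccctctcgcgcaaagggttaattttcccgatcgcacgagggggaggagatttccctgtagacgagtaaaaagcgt
Fasn: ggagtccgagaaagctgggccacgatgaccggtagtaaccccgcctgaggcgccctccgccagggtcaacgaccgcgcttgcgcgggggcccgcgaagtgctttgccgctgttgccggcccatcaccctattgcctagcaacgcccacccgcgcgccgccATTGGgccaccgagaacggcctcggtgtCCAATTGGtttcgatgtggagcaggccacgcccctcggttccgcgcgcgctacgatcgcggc

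The capitals in Angptl8 are the arms CCATTGACC and GGTCAATGG, which are reverse complements of each other, separated by 5 bases and lying 78 to 56 bases before the start. Perfect inverted repeats with arms of at least 9 bases and at most 10 bases between them were in 2.61% of 32851 such windows. This search was made after the sequence was seen. Motifs were searched on both strands. They were the E-box CACGTG (in 6.02% of all windows), a sterol regulatory element read as ATCAC, any base and CCAC (0.192%), AGGTCA (14%), a direct repeat of AGGTCA spaced by 1 base (0.0335%) or by 4 bases (0.0152%), CCAAT (33.8%), TATAAA (12.4%), and an interferon response element read as GAAA, any 2 bases and GAAA (2.98%). The direct repeats hold AGGTCA and so overlap with it. The Angptl8 window matched 0 of these 8. CCAAT was in the windows of Pnpla3 and Fasn, in Fasn 3 times, of which 2 matches on opposite strands overlap. AGGTCA was in the Elovl6 window on the opposite strand.

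Angptl8 was the member that differed most. It was at 10.69, 10.94 and 10.55 log2 in the TSC22D4 group, against 9.26, 9.29 and 8.55 in control. All TSC22D4 arrays lay above every array of the other groups. The means were 10.73 ± 0.20 with TSC22D4 shRNA and 9.03 ± 0.42 in control (SD, n = 3 each), a difference of 1.70 log2 or 3.24-fold, with a 95% interval of 1.10 to 2.29. Angptl8 lies within the span of Dock6 in the reference annotation. Dock6 was at 9.08, 9.04 and 9.23 with TSC22D4 shRNA and 9.36, 9.02 and 9.33 in control (-0.12, limma adjusted p = 0.73).

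With LCN13 shRNA Angptl8 was at 9.16, 9.31 and 9.74, which overlapped control. The mean of 9.40 ± 0.30 was 0.37 above control, with an interval of -0.22 to 0.97 that includes 0. Without LCN13 replicates 5 and 6 the difference was 0.71 and rests on 1 array. The combined group was at 9.69, 9.10 and 9.93 and overlapped both control and LCN13. Its mean of 9.58 ± 0.43 was 0.54 above control (interval -0.05 to 1.14) and 0.17 above LCN13 (interval -0.42 to 0.76), or -0.17 without LCN13 replicates 5 and 6. All arrays of the combined group lay below those of the TSC22D4 group, by 1.15 log2 on average (interval -1.75 to -0.56). The interaction, that is the TSC22D4 difference in the presence of LCN13 shRNA minus that in its absence, was -1.52 log2 (SE 0.37, interval -2.36 to -0.68), and -1.86 without those 2 arrays. In order of mean level the groups ran TSC22D4, combined, LCN13 and control, and among the last 3 neighbours did not differ beyond their spread.

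**Figure D1:**
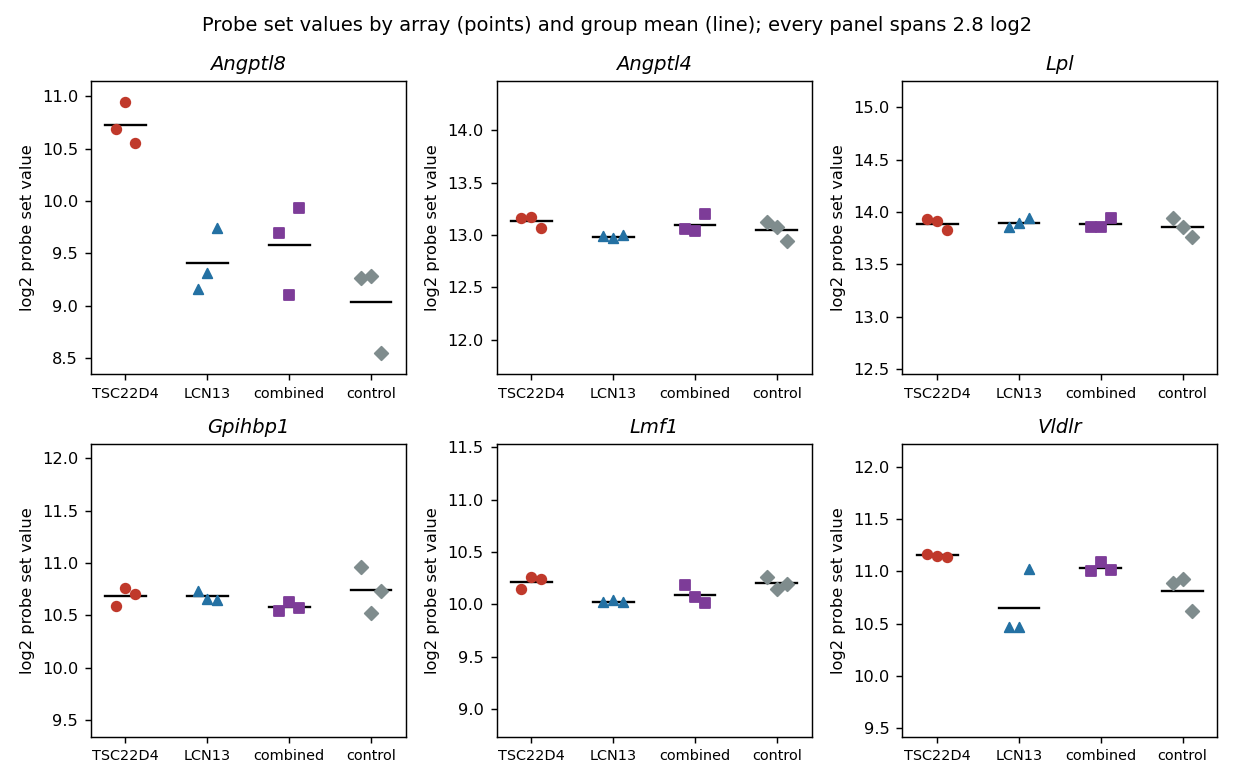
Log2 probe set values (vertical axis) of the 6 members on the 12 arrays, grouped by shRNA, with a line at each group mean and the same span in every panel. Angptl8 stands between 10.55 and 10.94 on the 3 TSC22D4 arrays and between 8.55 and 9.93 on the other 9 arrays, while Lpl stays between 13.76 and 13.94 throughout.

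Angptl4, the fasting-induced inhibitor, lay between 12.95 and 13.20 on all arrays. It was at 13.16, 13.18 and 13.07 with TSC22D4 shRNA, at 12.99, 12.97 and 13.00 with LCN13 shRNA, at 13.06, 13.04 and 13.20 in the combined group, and at 13.12, 13.08 and 12.95 in control. The groups overlapped control in each case, with differences of 0.086 (interval -0.037 to 0.21), -0.063 (interval -0.19 to 0.059) and 0.048 (interval -0.074 to 0.17) for TSC22D4, LCN13 and combined shRNA. The 3 combined arrays lay above the 3 LCN13 arrays, by 0.11 log2 (interval -0.012 to 0.23). For the averaged TSC22D4 effect the difference was 0.098 (interval 0.012 to 0.18), with overlap between arrays with and without TSC22D4 virus.

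Lpl, the lipase itself, was near the top of the scale, above 99.9% of named probe sets, and whether differences are compressed there was not tested. It was at 13.93, 13.91 and 13.82 with TSC22D4 shRNA, at 13.86, 13.89 and 13.94 with LCN13 shRNA, at 13.86, 13.86 and 13.94 in the combined group, and at 13.94, 13.86 and 13.76 in control. Every group overlapped every other. The differences from control were 0.036 (interval -0.074 to 0.15), 0.044 (interval -0.065 to 0.15) and 0.034 (interval -0.076 to 0.14) for TSC22D4, LCN13 and combined shRNA, and the 3 intervals together lie within -0.076 to 0.15 log2.

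Gpihbp1, the endothelial carrier of the lipase, was at 10.59, 10.76 and 10.70 with TSC22D4 shRNA, 10.73, 10.66 and 10.65 with LCN13 shRNA, and 10.54, 10.63 and 10.57 in the combined group, against 10.96, 10.52 and 10.74 in control. Control spread most and overlapped all 3 shRNA groups. The largest difference from control was that of the combined group, at -0.16 (interval -0.37 to 0.054). The combined arrays lay below the LCN13 arrays, by 0.10 log2 (interval -0.31 to 0.11).

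Lmf1, the folding factor, was at 10.02, 10.04 and 10.02 with LCN13 shRNA, against 10.26, 10.15 and 10.19 in control. The LCN13 arrays were all below the control arrays, with a difference of -0.17 log2 (SE 0.048, interval -0.28 to -0.066). With TSC22D4 shRNA it was at 10.15, 10.26 and 10.24, which overlapped control (0.017, interval -0.090 to 0.12). The combined group was at 10.19, 10.07 and 10.01 and also overlapped control (-0.11, interval -0.22 to -0.0015). Against the TSC22D4 group, which it overlapped, its difference was -0.13 (interval -0.23 to -0.019). For the averaged LCN13 effect the difference was -0.15 (interval -0.23 to -0.074), with overlap between arrays with and without LCN13 virus.

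Vldlr was the second member whose TSC22D4 arrays all lay above control. It was at 11.17, 11.15 and 11.14 with TSC22D4 shRNA and at 11.01, 11.09 and 11.01 in the combined group, against 10.89, 10.93 and 10.62 in control. The differences were 0.34 log2 or 1.26-fold (interval 0.029 to 0.65) for TSC22D4 and 0.22 (interval -0.089 to 0.53) for combined shRNA. The TSC22D4 group had the narrower spread of these, with an SD of 0.016 against 0.17 in control. With LCN13 shRNA Vldlr was at 10.47, 10.47 and 11.02, the first 2 on the arrays high in mesothelium markers. Averaged over LCN13 shRNA, the arrays with TSC22D4 virus were 0.36 log2 above those without it, at 11.09 against 10.73, and without LCN13 replicates 5 and 6 the difference was 0.18. The LCN13 difference from control was -0.16 (interval -0.47 to 0.15) and was 0.21 without those 2 arrays, and the interaction, 0.043 (interval -0.39 to 0.48), was -0.32 without them.

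**Figure D2:**
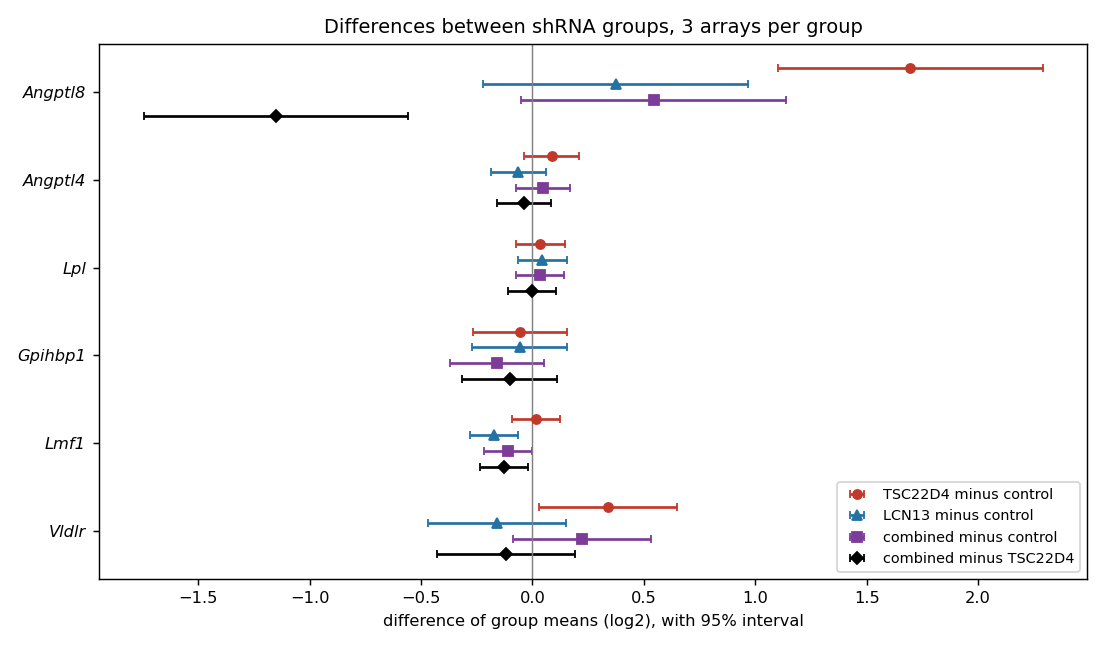
Differences of group means (horizontal axis, log2, points) with 95% intervals (bars) for each member in 3 comparisons with control and for the combined against the TSC22D4 group. Angptl8 has the widest differences, 1.70 for TSC22D4 minus control and -1.15 for combined minus TSC22D4, and the intervals of Lpl and Angptl4 all include 0.

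Of the 6 members, 1 passed limma's test at an adjusted p under 0.05 in the comparison of TSC22D4 shRNA with control, where 1.17% of all genes did. It was Angptl8, also the 1 member that passed for the averaged TSC22D4 effect, where 1.39% of genes did. With LCN13 shRNA and with both shRNAs 0 of 6 passed, where 1.44% and 1.34% of genes did. For the interaction 0 of 6 passed, where 0.397% of genes did. Groups of 3 arrays that did not overlap were found for 2 members with TSC22D4 shRNA against control (16.6% of all genes), 1 with LCN13 shRNA against control (15.7%), 1 with both against control (14.9%), 2 with both against LCN13 shRNA (16.5%) and 2 with both against TSC22D4 shRNA (14.5%). These contrasts chose the members, so the counts carry no evidence. The 3 comparisons with control share the same control arrays.

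The members were then followed among animals of the same group, a measure that the differences between groups do not fix. Each array's value was taken as its deviation from the mean of its group. Angptl8 moved with 3 of the 4 lipogenic genes among its 9 partners. Its r was 0.92 with Pnpla3, which codes for a lipid droplet protein that insulin and feeding induce (rho 0.90, 12 arrays). The exact permutation p within groups was 0.0015, adjusted over 9 partners 0.014, and 0.0054 for rho (adjusted 0.024). Both genes deviated in the same direction on 12 of 12 arrays. Deviations within a group sum to 0, so the directions counted here and below are not independent between arrays. Without the 2 arrays farthest from the median, control replicate 3 and combined replicate 14, r was 0.83.

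With Elovl6, a fatty acid elongase, Angptl8 had an r of 0.82 and a rho of 0.86, with exact permutation p = 0.0069 and 0.0054 (adjusted 0.031 and 0.024), the same direction on 11 of 12 arrays, and an r of 0.79 without those 2 arrays. With Fasn, the fatty acid synthase, r was 0.83 and rho 0.83, with exact permutation p = 0.012 and 0.022 (adjusted 0.035 and 0.065), the same direction on 12 of 12 arrays, and an r of 0.68 without the same 2 arrays. The rank correlation with Fasn thus missed the threshold. When single arrays were dropped, the call was lost for Elovl6 in 5 of 12 cases (control replicate 3, LCN13 replicate 8, TSC22D4 replicates 11 and 12, and combined replicate 14) and for Fasn in those 5 and 2 more (LCN13 replicates 5 and 6), with adjusted exact permutation p up to 0.10. For Pnpla3 it was lost in 0 cases. Srebf1, the lipogenic transcription factor, had an r of 0.54 and a rho of 0.52 with Angptl8 (exact permutation p = 0.11 and 0.13, adjusted 0.24 and 0.30) and did not pass.

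The other partners also did not pass. They were Pdk4 (r = -0.53, rho = -0.51), Irf7 (-0.39 and -0.37), Pparg (-0.15 and -0.26), Cdh5 (-0.12 and -0.098) and Adipoq (-0.079 and -0.070), with adjusted exact permutation p from 0.36 to 0.86 for both measures.

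Among the 15 pairs of members 0 passed after adjustment by the exact permutation test. The 3 pairs with the lowest p join Angptl4, Lpl and Angptl8. Angptl4 and Lpl had an r of 0.91 and a rho of 0.89, with exact permutation p = 0.0077 for both (adjusted 0.058 and 0.054), the same direction on 11 of 12 arrays, and an r of 0.87 without control replicate 3 and combined replicate 16. Angptl8 and Angptl4 had an r of 0.81 and a rho of 0.82 (exact permutation p = 0.0039 for both, adjusted 0.058 and 0.054, r = 0.67 without the 2 farthest arrays). Angptl8 and Lpl had an r of 0.79 and a rho of 0.84 (exact permutation p = 0.019 and 0.011, adjusted 0.093 and 0.054, r = 0.72 without them). These were the only pairs with an unadjusted exact permutation p under 0.05. The deviations of Lpl and Angptl4 behind these values reached 0.10 log2 from the group means. Gpihbp1 and Lmf1 had an r of 0.50 (rho 0.38, exact permutation p = 0.11 and 0.29), and the other 11 pairs had r between -0.27 and 0.58.

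**Figure D3:**
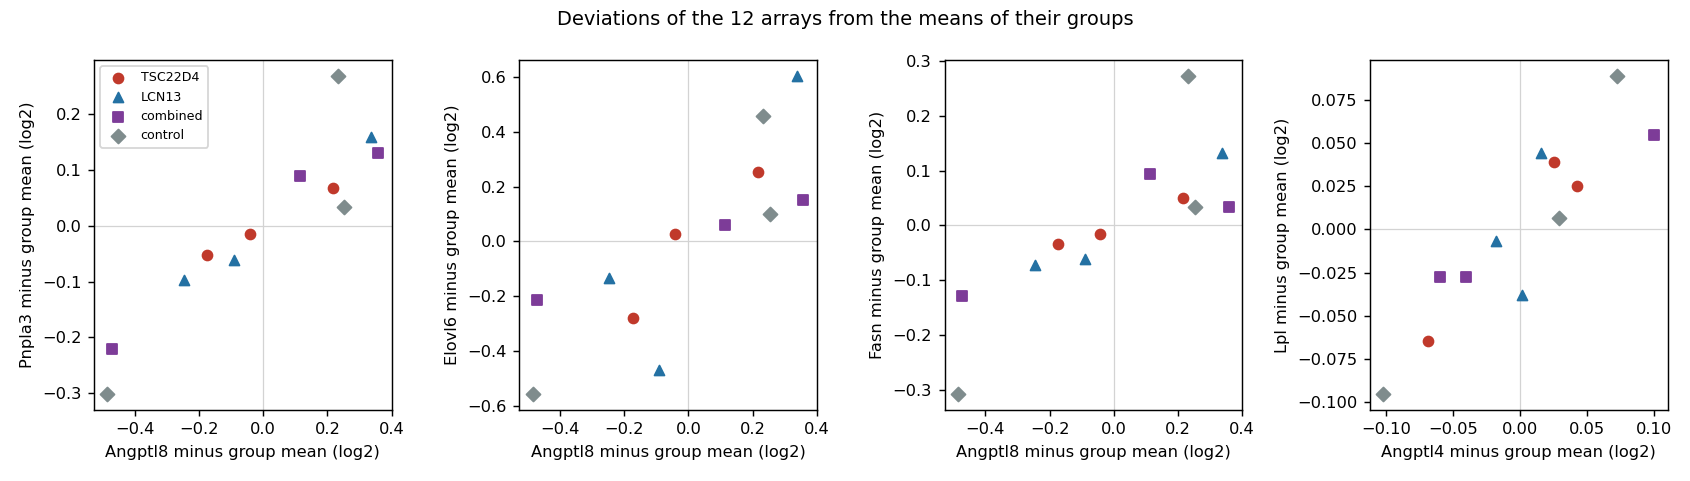
Deviations of the 12 arrays from their group means (both axes, log2) for Angptl8 with Pnpla3, Elovl6 and Fasn and for Angptl4 with Lpl, with points marked by group. Control replicate 3 lies lowest on the vertical axis in each panel, and r is 0.92, 0.82, 0.83 and 0.91 from left to right.

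Lists of related genes were described the same way, by the median of their within-group r with each member beside that of all genes. A lipogenic list held 20 genes of lipogenesis and of the response to feeding and insulin, not all of them induced by insulin. Their median r was 0.53 with Angptl8, 0.57 with Lpl and 0.42 with Angptl4, against 0.00053, 0.015 and 0.016 over all genes. Without control replicate 3 that with Angptl4 was 0.26. With Angptl8 7 of the 20 were above 0.7, against 2.32% of all genes, and they were Scd2 (0.95), Pnpla3 (0.92), Acly (0.90), Acaca (0.87), Fasn (0.83), Elovl6 (0.82) and Acss2 (0.77). The desaturase gene Fads1 and Pck1, which codes for phosphoenolpyruvate carboxykinase, had an r of -0.49 each. For Angptl8 this median ranged from 0.41 to 0.58 when 1 array was left out. Other members also had genes of this list above 0.7, namely 8 with Lpl, 6 with Angptl4, 5 with Vldlr, 1 with Lmf1 and 0 with Gpihbp1. The shares of all genes were 3.99%, 3.10%, 2.64%, 1.72% and 2.43%. Lpl had an r of 0.84 with Pnpla3, 0.81 with Fasn and 0.81 with Elovl6, which was not tested.

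Gpihbp1 followed the capillary endothelium. All 15 endothelial markers had a positive within-group r with it, with a median of 0.60, against 0.053 over all genes. The closest were Cd300lg (0.89), a capillary mucin-like protein, and the transcription factors Meox2 (0.86) and Tcf15 (0.81) of capillary endothelium. Without control replicate 1, the array highest in these markers, these 3 were at 0.86, 0.89 and 0.51, but 5 of the 15 markers turned negative (Kdr -0.19, Eng -0.25, Tek -0.43, Egfl7 -0.43 and Cldn5 -0.52), so the positive r of all 15 rests on that array. With 1 array left out at a time the median ranged from 0.34 to 0.67, the lowest without control replicate 2. These markers overlapped between groups, with mean levels of -0.060 to 0.054 on TSC22D4 arrays, -0.033 to 0.053 on LCN13 arrays and -0.056 to 0.031 on combined arrays, against -0.10 to 0.20 on control arrays. Macrophage markers ran against Gpihbp1, with 0 of 13 positive (median -0.66, and -0.38 without control replicate 1), and against Lmf1 (1 of 13 positive, median -0.57).

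Vldlr followed the fatty acid uptake and esterification genes, with a median r of 0.57 over 12 genes, against -0.018 over all genes, and ran against all 11 mesothelium markers (median -0.64). Both rest on the LCN13 group, where replicate 8 and the other 2 replicates differ most in Vldlr. Without LCN13 replicates 5 and 6 the medians were 0.11 and -0.027, and that for the lipogenic list was 0.54, against 0.29 with all arrays. The 3 red blood cell markers had a median r of 0.85 with Vldlr, 0.75 with Lpl and 0.64 with Angptl8. Without LCN13 replicates 5 and 6 these medians were 0.62, 0.82 and 0.54. The part of these other cells in the values of the members was not tested.

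**Figure D4:**
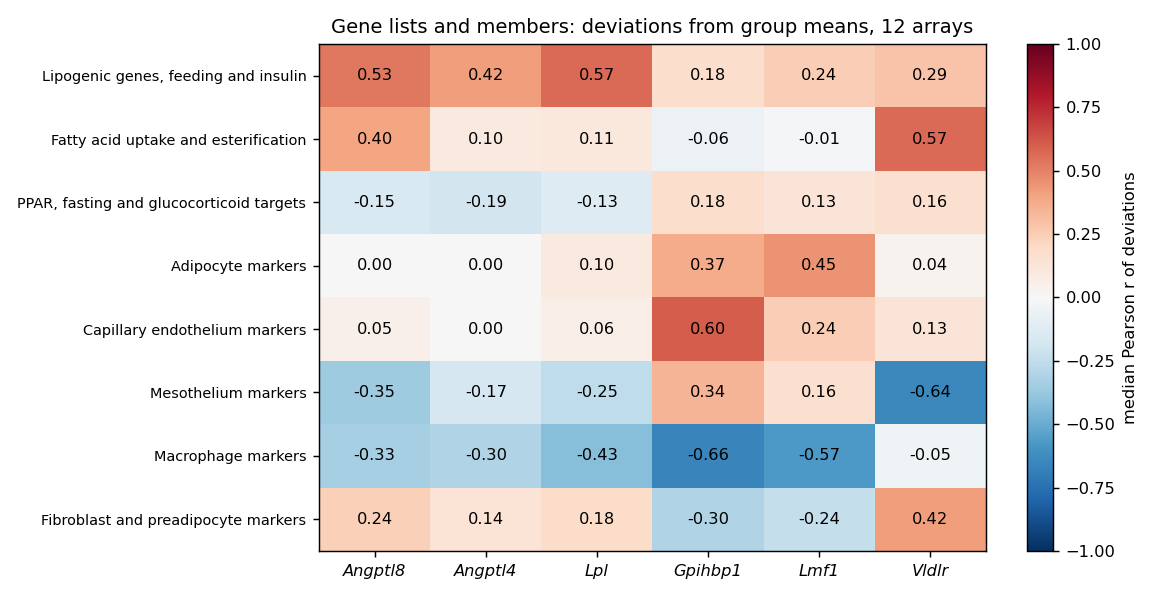
Median Pearson r between the deviations of list genes (rows) and of each member (columns) from group means over 12 arrays, with red for positive and blue for negative values. The lipogenic row is highest for Lpl (0.57) and Angptl8 (0.53), the endothelium row for Gpihbp1 (0.60), and the mesothelium row is lowest for Vldlr (-0.64).

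The genes around the lipase were tested between groups in the fit over all genes. With TSC22D4 shRNA 2 of 99 pathway genes rose and 3 fell against control, where 1.17% of all genes passed in either direction. The lists were chosen with earlier results of these arrays known, so counts over lists, here and below, carry no evidence. The 20 genes of the lipogenic list had a median difference of 0.34 log2, against -0.0022 over all genes, with 15 of 20 positive. Srebf1 rose by 0.47 (SE 0.08, limma adjusted p = 0.022), with arrays at 10.36, 10.16 and 10.18 with TSC22D4 shRNA, against 9.78, 9.88 and 9.63 in control. Larger but more variable differences were those of Elovl6, at 0.98 (limma adjusted p = 0.22), and of the carboxylase gene Acaca, at 0.65 (0.12), and neither passed. Acss2, the acetyl-CoA synthetase gene, at 0.58, and Pnpla3, at 0.52, also did not pass (adjusted p = 0.28 and 0.16). Srebf1 lost its call in 5 of 12 leave-one-out fits (adjusted p up to 0.079) and in a fit of only the 6 arrays compared.

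Downstream of the lipase, genes of fatty acid uptake and esterification had a median of 0.098 over 12. Lpin1, the phosphatidate phosphatase that makes diacylglycerol, rose by 0.44 (SE 0.08, adjusted p = 0.041). This call was lost in 10 of 12 leave-one-out fits (adjusted p up to 0.14) and with only the 6 arrays compared. The fatty acid transporter Slc27a1 fell by 0.39 (SE 0.04, adjusted p = 0.0015) with TSC22D4 shRNA, by 0.35 (adjusted p = 0.0028) with LCN13 shRNA and by 0.37 (adjusted p = 0.0017) with both, and no fit that left out 1 array ended these 3 calls. Without LCN13 replicates 5 and 6 the LCN13 difference was -0.39 and did not pass with 1 array left in the group (adjusted p = 0.062). Interferon-stimulated genes separated the same groups from control, with 16, 15 and 16 of 18 lower by limma with TSC22D4, LCN13 and both shRNAs, and their part in the Slc27a1 values was not tested. The Slc27a1 arrays were at 10.76 to 10.90 with TSC22D4, 10.84 to 10.91 with LCN13 and 10.81 to 10.93 with combined shRNA, against 11.19 to 11.25 in control. Cd36 (0.034) and Fabp4 (0.077), the main uptake and binding proteins of adipocytes, did not pass. Gpam (0.49, adjusted p = 0.064) also did not pass.

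Targets shared with Angptl4, which answer to PPARs, fasting or glucocorticoids, had a median of -0.053 over 13 with TSC22D4 shRNA. Pdk4, the kinase that restrains pyruvate dehydrogenase, fell by 0.82 (SE 0.14, adjusted p = 0.024) and Txnip, an inhibitor of thioredoxin and of glucose uptake, fell by 0.27 (SE 0.04, adjusted p = 0.017). Pdk4 also fell with LCN13 shRNA (by 0.78, adjusted p = 0.027). In the combined group it was at 11.38, 11.35 and 10.95, against 11.57, 11.19 and 11.38 in control (-0.15, adjusted p = 0.85). Pdk4 lost its calls in 5 of 12 leave-one-out fits in each single shRNA comparison (adjusted p up to 0.098 and 0.087) and Txnip in 3 (up to 0.063). With only the 6 arrays compared, Txnip lost its TSC22D4 call and Pdk4 its LCN13 call.

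In the other 5 lists 0 of 54 genes passed with TSC22D4 shRNA by limma, where 1.17% of all genes did, and 10 had an unadjusted p under 0.05, where 11.8% of all genes did. They were 15 genes of lipase folding, transport and clearance (median 0.011), 11 apolipoproteins and other extracellular regulators (median -0.082), 3 other angiopoietin-like genes (median 0.026), 10 other lipases (median -0.016) and 15 transcription factors (median 0.072). The apolipoprotein gene Apoc4 was at 8.47, 8.35 and 8.33 with TSC22D4 shRNA, against 8.04, 7.66 and 7.72 in control (0.58, adjusted p = 0.053), and passed for the averaged TSC22D4 effect (0.46, adjusted p = 0.032, lost in 10 of 12 leave-one-out fits with adjusted p up to 0.081). The carboxylesterase Ces1d, an intracellular triglyceride hydrolase, had the largest negative difference of the 99 (-0.94, SE 0.34, adjusted p = 0.30). Also for the averaged effect, Slc27a1 fell by 0.21 (adjusted p = 0.012), Fads1 by 0.23 (adjusted p = 0.036) and Txnip by 0.16 (adjusted p = 0.043). With 1 array left out the Fads1 call was lost in 10 of 12 fits (adjusted p up to 0.092) and the Txnip call in 11 (up to 0.11). None of these 4 genes passed without LCN13 replicates 5 and 6 (limma adjusted p 0.19 to 0.33), at 0.45 for Apoc4, -0.18 for Slc27a1, -0.16 for Fads1 and -0.11 for Txnip. The sorting receptor Sorl1 was at 0.40 (adjusted p = 0.24) and Pparg, the adipogenic nuclear receptor, at 0.093 (adjusted p = 0.44).

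With LCN13 shRNA 0 of 99 pathway genes rose and 3 fell, and with both shRNAs 0 rose and 1 fell, where 1.44% and 1.34% of all genes passed in either direction. The lipogenic median was 0.093 with LCN13 and 0.22 with both, against 0.0040 and 0.0015 over all genes. Besides Slc27a1 and Pdk4, the acetyl-CoA carboxylase Acacb, which limits fatty acid entry into mitochondria, fell with LCN13 shRNA (by 0.70, SE 0.13, adjusted p = 0.032). This call was lost in 9 of 12 leave-one-out fits (adjusted p up to 0.11) and with only the 6 arrays compared. Acacb was at 8.75, 8.68 and 8.41 with LCN13 shRNA, against 9.59, 9.32 and 9.05 in control. Without LCN13 replicates 5 and 6 the count with LCN13 shRNA was 0 by limma, on 1 array assumed to vary like the others, while the differences were as large or larger, at -0.90 for Acacb, -0.99 for Pdk4 and -0.39 for Slc27a1.

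**Figure D5:**
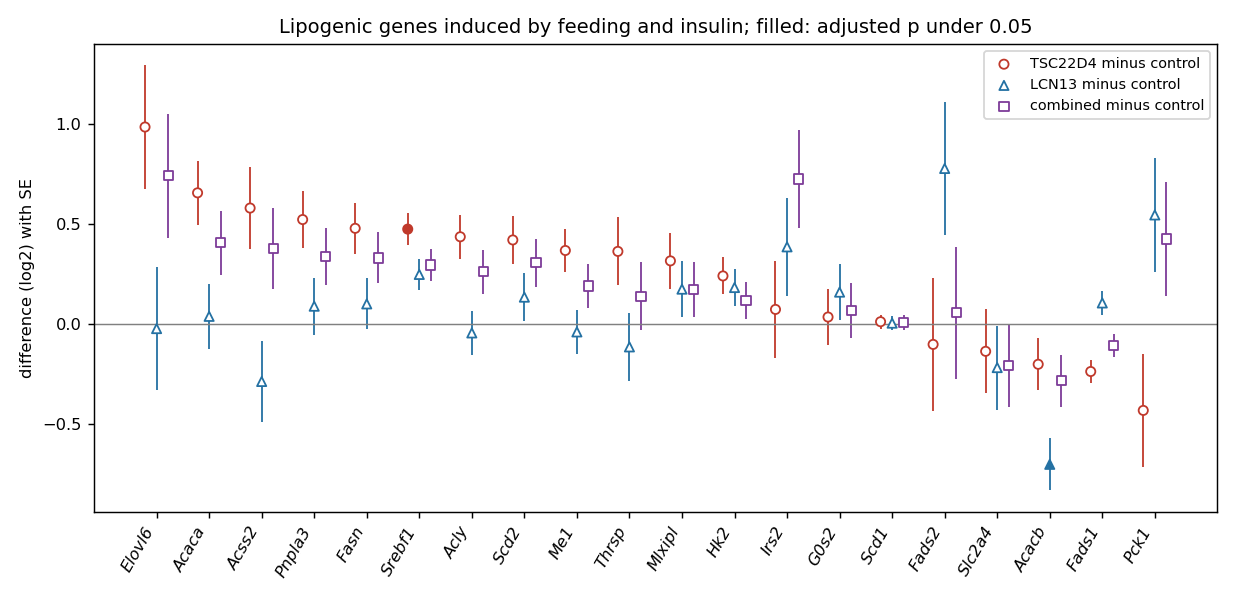
Differences (vertical axis, log2) with SE for the 20 genes of the lipogenic list in the 3 comparisons with control. Genes are ordered by the TSC22D4 difference, with filled symbols for an adjusted p under 0.05. Srebf1 with TSC22D4 shRNA and Acacb with LCN13 shRNA are the filled symbols, and Elovl6 has the highest TSC22D4 difference at 0.98.

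Genes most like each member over the 12 arrays were ranked by Pearson r, differences between groups included, among 1613 or 1614 named genes with an SD of at least 0.2 log2. These values describe likeness and were not tested. The genes most like Angptl8 were Adap1 (0.94), Tmem97 (0.94), the glycogen branching enzyme Gbe1 (0.93), the basement membrane protein gene Nid2 (0.92) and Gsdme (0.91). Their r within groups was lower, at 0.68 to 0.83. The least like were the matrix glycoprotein gene Thbs2 (-0.87), Ces1f (-0.84), Bmp3 (-0.84), P3h2 (-0.83) and the tissue factor gene F3 (-0.83).

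Vldlr was most like Glb1l2 (0.98), the malic enzyme gene Me1 (0.97) and Paqr9 (0.96). Its r with them within groups was 0.94, 0.97 and 0.88. Vldlr spread most in the LCN13 group, with deviations of -0.18, -0.18 and 0.37 on replicates 5, 6 and 8. How far these r rest on that group was not tested. Angptl4 was most like Ppp2r5b (0.95), Aacs (0.93), which codes for acetoacetyl-CoA synthetase, and the cell cycle inhibitor Cdkn2b (0.90). For Lpl they were Ufm1 (0.83), the immunoglobulin segment Ighv2-2 (0.83) and Nrep (0.79). For Gpihbp1 they were Afap1l1 (0.81), Peg10 (0.75) and the T cell receptor segment Trbj2-3 (0.74), and for Lmf1 the immunoglobulin segment Igkv4-59 (0.89), Apol10b (0.84) and Il2rb (0.83). Lpl, Lmf1, Angptl4 and Gpihbp1 had an SD of 0.12 log2 or less over the 12 arrays, so their ranking rests on small differences.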

How the data were processed

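RNA of abdominal fat from 12 mice was measured on arrays, 3 per group. The authors deposited 1 log2 value per probe set and array, made with RMA per the submitters' processing notes. No version, setting or build was stated for it. The sorted columns differed by at most 0.0019, so a change shared by most genes is removed. Of 25206 probe sets, 23185 had 1 gene symbol, 0 several and 2021 none. All 23185 Entrez identifiers matched the GRCm38.p6 gene table, used for names and neighbours. Promoters are RefSeq's.

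All 12 arrays entered 1 linear model in limma 3.58.1 (R 4.3.3, default eBayes) with 1 mean per group, and two-sided p-values had Benjamini-Hochberg adjustment over all named genes. The median residual SD was 0.065, with 8 residual degrees of freedom. The number of arrays limits the precision, and p-values measure the spread between the animals chosen for arrays. Alternatives were array weights, another variance prior, a filter on dim probe sets, scaling to 9 reference genes, the 6 arrays compared alone, each array left out, and, chosen after seeing the data, LCN13 replicates 5 and 6 left out. Both limma and the permutation test were tested on simulated data, and the outcome is not given here. Within-group correlations used an exact two-sided permutation test that shuffled arrays within groups (1296 arrangements), adjusted over 15 pairs of members and over 9 partners of Angptl8. Group means were subtracted first.

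The members and lists were chosen with earlier results of these data known. Named from each list were genes that passed and up to 4 others with the largest TSC22D4 difference, and by likeness the 3 closest genes per member, 5 closest and 5 farthest for Angptl8. Interferon-stimulated genes are given as counts. Cd36, Fabp4, Pparg, Dock6, Kdr, Cd300lg, Meox2, Tcf15 and the genes listed by their r with Angptl8 were named after their values were seen. Listed genes without a probe set here were not analysed.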

Additional observations from a re-analysis of the deposited data

Results flagged for a closer look

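The interaction of TSC22D4 and LCN13 shRNA passed limma's test for 2 pathway genes and for 0 of the 6 members (1641 genes had an unadjusted p under 0.05 in this comparison and 92 passed). For Slc27a1 it was 0.36 log2 (SE 0.058, adjusted p = 0.037), a call lost in 11 of 12 fits that left out 1 array (adjusted p up to 0.11), and also with a trended and robust prior (0.092), without dim probe sets (0.076) and after scaling to reference genes (0.051). For Pdk4 it was 1.45 log2 (SE 0.20, adjusted p = 0.015), lost without TSC22D4 replicate 10, TSC22D4 replicate 11 or combined replicate 14 (adjusted p up to 0.053). Without LCN13 replicates 5 and 6 neither passed, at 0.40 for Slc27a1 (adjusted p = 0.16) and 1.66 for Pdk4 (adjusted p = 0.068). With all 12 arrays, 12 of 18 interferon-stimulated genes also passed as higher for the interaction by limma (median 1.58 log2). A gene that lies below control by a like amount in all 3 shRNA groups has a positive interaction. Slc27a1 had means of 10.84 with TSC22D4, 10.88 with LCN13 and 10.85 with both shRNAs, against 11.23 in control. Whether it shares a cause with the interferon-stimulated genes was not tested. Groups held 3 arrays, too few to test a single array for standing apart.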

How the results depend on the processing

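Of 452 values recomputed under other settings 14 changed sign, and of 1152 with 1 array left out 49 did, of which 0 and 0 were values that had passed a test. A changed call, or a changed value where there was no call, was marked for 50 of the 452 and 144 of the 1152. The count of pathway genes called depended on the setting, and the cause was not tested. For TSC22D4 shRNA against control it was 5, and 8 without dim probe sets, 8 without LCN13 replicates 5 and 6, 2 with only the 6 arrays compared, and 1 (without control replicate 3) to 9 (without LCN13 replicate 8) with 1 array left out. For LCN13 shRNA it was 3, and 6 with array weights, 0 without LCN13 replicates 5 and 6, 1 with only 6 arrays, and 1 to 3 with 1 array left out. For the interaction it was 2, and 0 without LCN13 replicates 5 and 6. For both shRNAs it was 1, and 2 with array weights. For the averaged TSC22D4 effect it was 4, and 16 with array weights, 10 with a trended and robust prior, 14 without dim probe sets, 10 after scaling to reference genes, 0 without LCN13 replicates 5 and 6, and 1 to 17 with 1 array left out. Without LCN13 replicates 5 and 6 the averaged Vldlr difference was 0.18, against 0.36, and r of Angptl8 with Fasn was 0.81 and no longer passed (adjusted exact permutation p = 0.11). With 1 array left out this r ran between 0.72 and 0.92, and that with Elovl6 between 0.73 and 0.89. The Angptl8 difference between TSC22D4 shRNA and control ran between 1.45 and 1.82. No paired analysis was possible because the groups share no replicate numbers.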
